A study of Mus musculus with 4 samples.

Results

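The genes of cholesterol synthesis and of the SREBP2 circuit that controls it were followed across the 4 liver arrays of a Drp1 deletion study. Members were taken by symbol: 28 genes, matched by the gene name of 45 array probes, out of 30439 genes or transcripts on the array. They comprise 19 synthesis enzymes, 6 regulators and 3 genes of sterol transport and uptake control. Liver RNA came from male C57BL/6J mice kept for 24 weeks on a high-fat diet, which the study's methods start at 4 weeks of age. The groups were control mice (Cont), labelled wild type and described in the methods as Drp1 flox/flox littermates, and Drp1LiKO mice, labelled knockout, in which a Cre transgene under the albumin promoter (Alb-Cre) deletes the floxed Dnm1l, the gene of the mitochondrial fission GTPase Drp1, in hepatocytes. Each genotype was measured after fasting and again after refeeding, in different mice. The refed mice were fasted for 17 h and then fed for 4 h according to the series text, and the methods give a slightly shorter fast. The remaining arrays carry no feeding label and are called fasted here because the paper describes fasted and refed livers. There was 1 array for each condition, and the number of mice behind each RNA sample is not given in the sources used here, so no difference below has a replicate check.

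Cholesterol is made from acetyl-CoA through mevalonate, isoprenoid diphosphates, squalene and lanosterol, and hepatocytes are among the main producers in the body. SREBP2, encoded by Srebf2, is held in the endoplasmic reticulum by Scap and the Insig proteins when sterols are plentiful. When sterols are scarce, Scap carries it to the Golgi, where the proteases encoded by Mbtps1 and Mbtps2 release a transcription factor that binds sterol regulatory elements near the genes of the pathway.

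The array holds 1 probe for Dnm1l. Its signal in Drp1LiKO minus Cont was -0.21 ± 0.20 on the log2 scale after fasting and -0.12 ± 0.20 after refeeding (measurement SE), so the probe did not separate the genotypes, and where it lies relative to the deleted exons is not given in the sources used here. All 7 hepatocyte markers were well above background on every array. Their summed log2 signal ranged from 10.59 to 11.24 and Drp1LiKO minus Cont was -0.45 after fasting and -0.49 after refeeding, while single markers went the other way, Tat at 1.04 and 0.98 and Cps1 at 0.60 and 1.24. The summed signal of 6 macrophage markers was higher in Drp1LiKO, by 0.20 after fasting and 0.71 after refeeding, and it was 0.62 higher on refeeding in Drp1LiKO and 0.10 in Cont. Of the 6 markers, Lyz2 and Itgax were past 2-fold between genotypes in both states. The summed signal of 3 lymphocyte markers in Drp1LiKO minus Cont was -0.48 after fasting and -0.47 after refeeding, with Cd3e at -0.67 and -0.64, Cd79a at 0.15 and -0.20, and Ptprc called higher in both states. Sox9 was likewise higher among 4 cholangiocyte markers, of which Epcam stayed near background throughout. The summed signal of 4 stellate or fibroblast markers in Drp1LiKO minus Cont was 1.21 after fasting and -0.25 after refeeding. Col1a1 was at 1.67 and -0.02, Col3a1 at 1.28 and -0.44, Acta2 at 0.81 and 0.06, and Des at -0.08 and 0.02. The 3 endothelial markers had a lower summed signal in Drp1LiKO in both states. Kdr was at -0.81 after fasting and -0.93 after refeeding, Stab2 at -0.05 and -0.24, and Pecam1 the other way at 0.84 and 0.07. No array had any of 4 adipocyte markers well above background. The part of cell composition in the member differences was not tested, and in whole liver fewer cells of a type and less RNA per cell cannot be told apart.

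All levels below are log2 signals minus the log2 of the array's own 75th percentile, so a negative level is a signal below that percentile, and levels of different probes are not compared. A gene was called different when 2 arrays differed by 2-fold or more, that is by 1 or more on the log2 scale, and the brighter signal was well above background. The ± values are measurement SEs from the scanner's error model and leave out the spread between mice. Of the 28 members, 26 were well above background on all 4 arrays, and Srebf2 and Mbtps2 were so on every array except Cont refed.

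Of the 28 members, 1 was called on refeeding in Cont liver and 6 in Drp1LiKO liver, 5 of them higher. In Cont, Idi1 alone was called, and it was lower. In Drp1LiKO, Mvd, Insig1, Srebf2, Fdps and Sqle were higher after refeeding and Insig2 was lower. The background was 3.88% of 18963 measured genes called higher and 5.05% called lower in Cont, against 5.42% higher and 6.91% lower in Drp1LiKO. The median refeeding difference over the members was -0.04 in Cont, where the median of all measured genes was 0.11, and 0.35 in Drp1LiKO, where the median of all genes was 0.08. Under quantile normalization the member median in Drp1LiKO was 0.13 and that of all genes 0.02. At a lower threshold of 1.5-fold in either direction, 3 members were called in Cont (all genes, 18.9%) and 14 in Drp1LiKO (all genes, 31.3%).

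**Figure D1:**
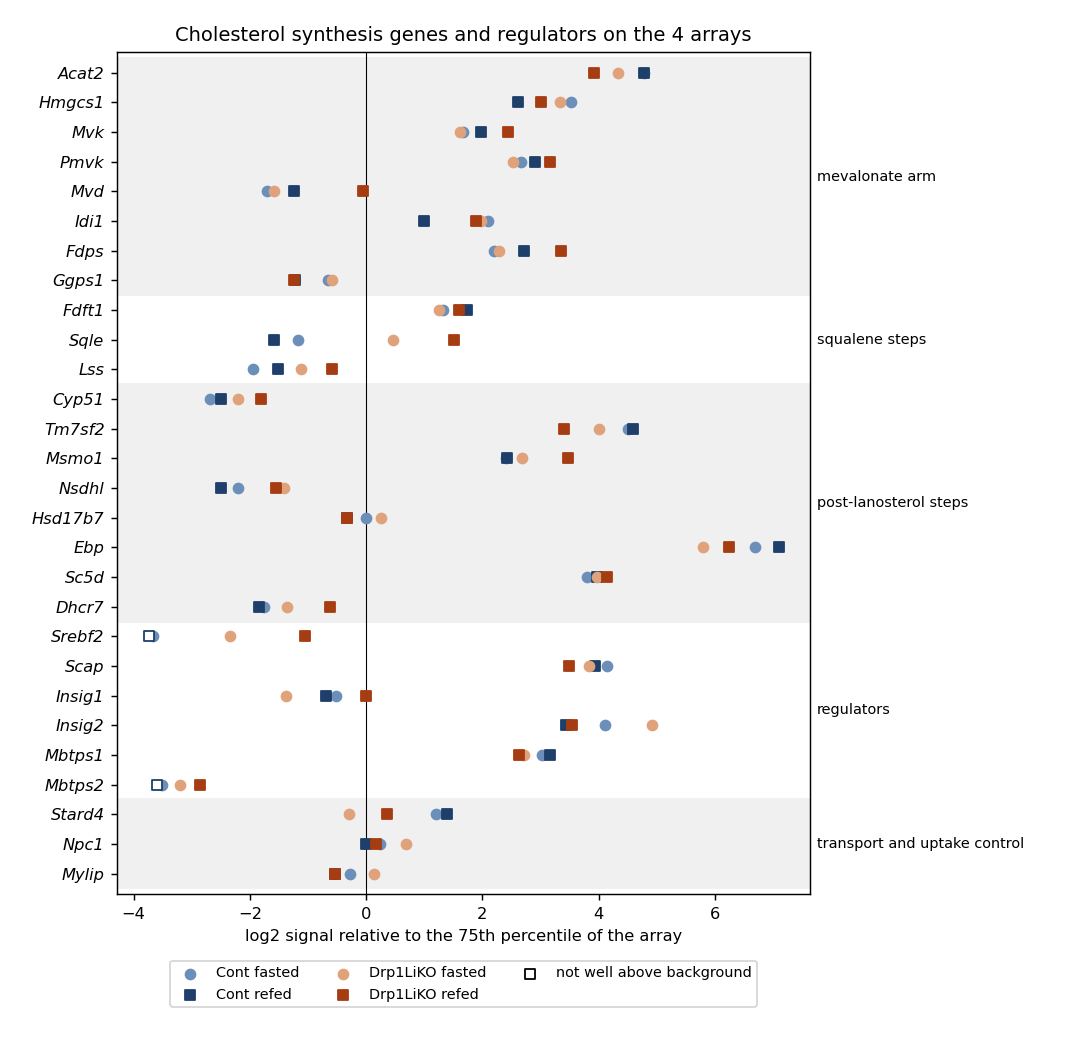
Level of each member on the 4 arrays, as log2 signal relative to the 75th percentile of the array (horizontal axis), with members in rows by role. Circles are fasted and squares refed, blue is Cont and orange Drp1LiKO, and open symbols are not well above background. Both Drp1LiKO levels lie to the right of both Cont levels for Sqle, Srebf2, Lss, Cyp51, Msmo1, Nsdhl, Dhcr7 and Mbtps2. They lie to the left for Stard4, Acat2, Tm7sf2, Ebp, Scap and Mbtps1.

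After fasting, Sqle and Srebf2 were 2-fold or more higher in Drp1LiKO and Stard4 was lower (all genes, 7.67% higher and 4.94% lower). After refeeding, Sqle, Srebf2, Dhcr7, Mvd and Msmo1 were 2-fold or more higher and Tm7sf2 and Stard4 lower (all genes, 7.4% higher and 5.83% lower). The member median was 0.10 after fasting beside -0.09 for all genes, and 0.33 after refeeding beside -0.06 for all genes. At 1.5-fold, 8 members were called after fasting (all genes, 26.8%) and 16 after refeeding (all genes, 27.7%), of which 12 were higher in Drp1LiKO and 4 lower. In all, 11 of the 28 members passed 2-fold in at least 1 of the 4 comparisons, as did 27.8% of all measured genes.

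Across arrays this design permits a single test, a limma fit with additive terms for genotype and feeding state, which has 1 residual degree of freedom and treats unequal refeeding responses as error. No member passed a Benjamini-Hochberg adjusted p of 0.05 for genotype, where 0% of 16744 genes passed. An unadjusted p under 0.05 for genotype was found for 11 of the 28 members and for 28.3% of all genes. The smallest adjusted p among members was 0.102, for Stard4. For feeding state, again 0% of genes and no member passed, 8 members and 26.4% of all genes had an unadjusted p under 0.05, and the smallest adjusted p among members was 0.169. When limma was fitted only where all 4 arrays were well above background (14447 genes), this brought 8.4% of genes past the threshold for genotype, among them 5 members (Sqle, Lss, Nsdhl, Ebp and Stard4, with adjusted p from 0.0362 to 0.0413), and 0.104% of genes and no member for feeding state.

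**Figure D2:**
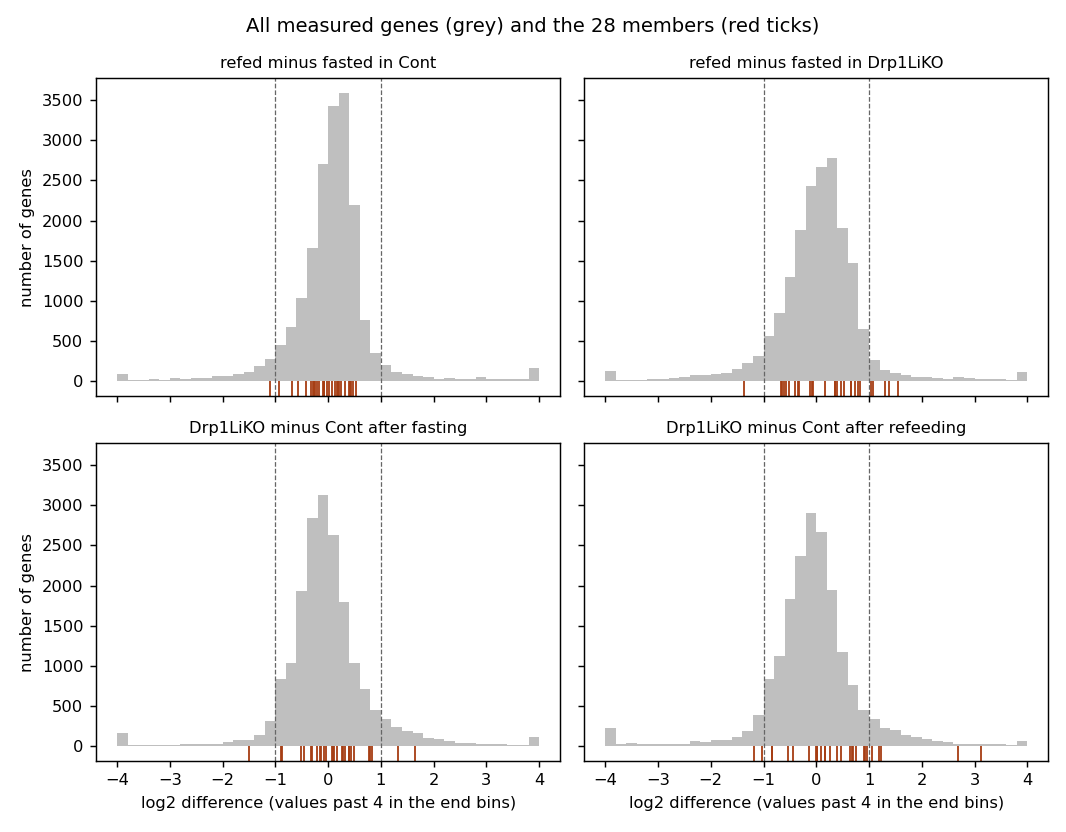
Number of genes (vertical axis) by log2 difference (horizontal axis) in each of the 4 comparisons, for all 18963 measured genes in grey, with the 28 members as red ticks and the 2-fold limits dashed. The member ticks stay between the limits for refeeding in Cont except Idi1, and the ticks farthest to the right after refeeding are Srebf2 and Sqle.

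The promoter sequences of 4 members are shown because these genes had different patterns on the arrays and their proximal DNA can be read beside the values. Insig1 and Mvd were called higher on refeeding in Drp1LiKO, Hmgcs1 was nearly 2-fold lower on refeeding in Cont, and Tm7sf2 was called lower in refed Drp1LiKO. Each is the 250 bases before the annotated RefSeq start on the build GRCm38.p6, written 5′ to 3′ on the strand of the gene. Capitals mark the sterol regulatory element TCACNCCAC or its shorter core CACNCCAC, the CCAAT box CCAAT and the E-box CACGTG, each searched on both strands, so a CCAAT box on the other strand reads ATTGG.
Insig1 (chr5:28071162-28071411, plus strand): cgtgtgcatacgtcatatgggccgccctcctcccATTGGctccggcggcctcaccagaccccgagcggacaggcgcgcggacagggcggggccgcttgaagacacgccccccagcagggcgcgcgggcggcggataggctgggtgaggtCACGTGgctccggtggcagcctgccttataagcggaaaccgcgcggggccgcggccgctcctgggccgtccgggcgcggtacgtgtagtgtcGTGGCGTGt
Mvd (chr8:122443423-122443672, minus strand): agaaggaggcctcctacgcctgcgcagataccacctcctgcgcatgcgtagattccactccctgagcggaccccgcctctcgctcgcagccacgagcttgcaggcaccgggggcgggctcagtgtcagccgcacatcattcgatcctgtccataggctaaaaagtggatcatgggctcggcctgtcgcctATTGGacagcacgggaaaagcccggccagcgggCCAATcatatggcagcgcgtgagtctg
Hmgcs1 (chr13:119690101-119690350, plus strand): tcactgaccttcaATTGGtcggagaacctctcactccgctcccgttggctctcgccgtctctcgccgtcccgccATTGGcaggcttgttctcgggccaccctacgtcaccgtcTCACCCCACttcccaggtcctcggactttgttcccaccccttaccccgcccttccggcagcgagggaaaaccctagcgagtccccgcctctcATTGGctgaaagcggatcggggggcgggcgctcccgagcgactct
Tm7sf2 (chr19:6067851-6068100, minus strand): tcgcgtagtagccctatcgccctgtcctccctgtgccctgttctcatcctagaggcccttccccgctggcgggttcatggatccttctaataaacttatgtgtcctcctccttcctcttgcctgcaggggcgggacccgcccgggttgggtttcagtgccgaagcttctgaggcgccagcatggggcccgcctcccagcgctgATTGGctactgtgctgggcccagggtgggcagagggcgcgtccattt

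The promoters of 23 members were read in 29 windows, since some genes have several starts. Sqle, Fdft1, Fdps, Stard4 and Npc1 had no window and were not searched. The full element was found in Hmgcs1 alone, at position -137 from the start, that is in 1 of the 29 windows and in 1.05% of all 32851 RefSeq promoter windows. Its core CACNCCAC, which the full element contains, was found in 3 of the 29 windows, those of Hmgcs1, Insig1 and Acat2, and in 5.29% of all windows. A CCAAT box was found in 19 of the 29 member windows and in 33.8% of all windows, with 2 copies in Mvd, 3 in Hmgcs1 and 1 each in Insig1 and Tm7sf2. The E-box was found in 5 of the 29, in Dhcr7, Hsd17b7, Insig1, Sc5d and Scap, and in 6.02% of all windows. These matches describe the letters of the windows only.

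Enzymes of the mevalonate arm turn acetyl-CoA into the isoprenoid building blocks. Of its 8 members, Mvd and Fdps were called higher on refeeding in Drp1LiKO and Idi1 was called lower in Cont. Mvd, the decarboxylase that makes isopentenyl diphosphate, had levels of -1.71 in Cont fasted, -1.24 in Cont refed, -1.59 in Drp1LiKO fasted and -0.05 in Drp1LiKO refed. The refed Drp1LiKO liver stood apart from the other 3 arrays. The refeeding difference of Mvd was 0.47 ± 0.23 in Cont and 1.54 ± 0.21 in Drp1LiKO, a 2.91-fold higher signal in the latter. Its genotype difference was 0.12 ± 0.22 after fasting and 1.19 ± 0.22 after refeeding, and the latter was 0.94 with normexp background correction. The probe lies on chromosome 8 from 124957750 to 124957809 of mm9, and was the only one for the gene.

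Idi1 interconverts isopentenyl and dimethylallyl diphosphate. Its levels were 2.09 in Cont fasted, 0.99 in Cont refed, 1.97 in Drp1LiKO fasted and 1.90 in Drp1LiKO refed. Here Cont refed was the array that stood apart, with a 2.15-fold lower signal than Cont fasted (difference -1.10 ± 0.20), while the Drp1LiKO arrays differed by -0.06 ± 0.20. Hmgcs1, the cytosolic HMG-CoA synthase, was closest to the threshold in the same direction in Cont, with levels of 3.53 fasted and 2.61 refed (difference -0.93 ± 0.20) against 3.33 and 3.01 in Drp1LiKO. Its second probe was well above background on 1 array.

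Fdps makes farnesyl diphosphate, the branch point between sterols and other isoprenoids. Its levels were 2.20 in Cont fasted, 2.72 in Cont refed, 2.29 in Drp1LiKO fasted and 3.36 in Drp1LiKO refed. Both genotypes were higher after refeeding, by 0.52 ± 0.20 in Cont and 1.08 ± 0.20 in Drp1LiKO, but the Drp1LiKO value lay under 2-fold in 3 of 5 other ways of processing the signals (lowest 0.89). The kinases Mvk and Pmvk, which phosphorylate mevalonate in sequence, followed that order without passing 2-fold, at 0.32 and 0.24 in Cont and 0.84 and 0.65 in Drp1LiKO, and the second probe of each gave values of the same sign. Ggps1, which draws farnesyl diphosphate into geranylgeranyl diphosphate, was lower after refeeding in both genotypes, at -0.57 and -0.65. It has 3 probes, and those not used for the calls gave -1.03, past 2-fold, and 0.15 in Cont. Acat2, the cytosolic thiolase of the first step, had its lowest level in Drp1LiKO refed, at 3.93 beside 4.34 to 4.79 on the other arrays.

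The squalene steps held the largest difference among members measured well above background on all 4 arrays. Sqle, the epoxidase that prepares squalene for ring closure and a known point of control, had levels of -1.18 in Cont fasted, -1.59 in Cont refed, 0.47 in Drp1LiKO fasted and 1.52 in Drp1LiKO refed. Both Drp1LiKO arrays lay above both Cont arrays. The Drp1LiKO signal was 3.15-fold that of Cont after fasting (log2 difference 1.65 ± 0.21) and 8.67-fold after refeeding (3.12 ± 0.22), and 158 of the 18963 measured genes had a larger refed difference. The refeeding differences were -0.42 ± 0.22 in Cont and 1.05 ± 0.20 in Drp1LiKO. The adjusted p for genotype in the limma model was 0.106. Its single probe lies on chromosome 15 from 59162688 to 59162747 of mm9.

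The neighbouring enzymes had smaller genotype differences, with Lss in the direction of Sqle. Fdft1, the squalene synthase just upstream, differed between genotypes by -0.08 ± 0.20 after fasting and -0.13 ± 0.20 after refeeding, and was higher on refeeding by 0.40 in Cont and 0.35 in Drp1LiKO. Lss, which closes the ring to lanosterol, was higher in Drp1LiKO by 0.82 ± 0.22 after fasting and 0.92 ± 0.22 after refeeding, just short of 2-fold in both states.

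Of the 8 enzymes after lanosterol, 6 had a higher signal in Drp1LiKO after refeeding and 2 a lower one, and 3 were called. Dhcr7, the reductase of the last step of one branch, had levels of -1.75 in Cont fasted, -1.85 in Cont refed, -1.36 in Drp1LiKO fasted and -0.62 in Drp1LiKO refed. Msmo1, the methyl sterol oxidase that starts removal of ring methyl groups, had levels of 2.40, 2.42, 2.69 and 3.48 in the same order. For each, Drp1LiKO refed was the highest array and the Cont arrays were nearly equal. The refed genotype difference was 1.23 ± 0.23 for Dhcr7 and 1.06 ± 0.20 for Msmo1, beside 0.40 ± 0.22 and 0.29 ± 0.20 after fasting. With normexp the refed value of Dhcr7 was 0.84, under 2-fold.

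Tm7sf2, a sterol reductase, went the other way. Its levels were 4.51 in Cont fasted, 4.59 in Cont refed, 4.00 in Drp1LiKO fasted and 3.40 in Drp1LiKO refed. Drp1LiKO minus Cont was -0.51 ± 0.20 after fasting and -1.19 ± 0.20 after refeeding, and the second probe showed the same order, with 1.83 in Cont refed and 0.74 in Drp1LiKO refed. Ebp, the sterol isomerase, was also lower in Drp1LiKO, at -0.90 ± 0.20 and -0.85 ± 0.20, below the 2-fold limit in both states.

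The remaining enzymes of these steps stayed within 2-fold in all 4 comparisons. Nsdhl, a dehydrogenase of ring demethylation, was higher in Drp1LiKO by 0.78 ± 0.23 after fasting and 0.95 ± 0.27 after refeeding, and Cyp51, the lanosterol demethylase, by 0.50 ± 0.24 and 0.69 ± 0.25. The second probe of Nsdhl, well above background on 2 arrays, had the opposite sign after fasting. Hsd17b7, a ketosteroid reductase, differed by 0.26 and 0.01, and its 3 probes disagreed in sign in every comparison. Sc5d, the sterol desaturase, was the flattest member, with levels between 3.81 and 4.14.

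**Figure D3:**
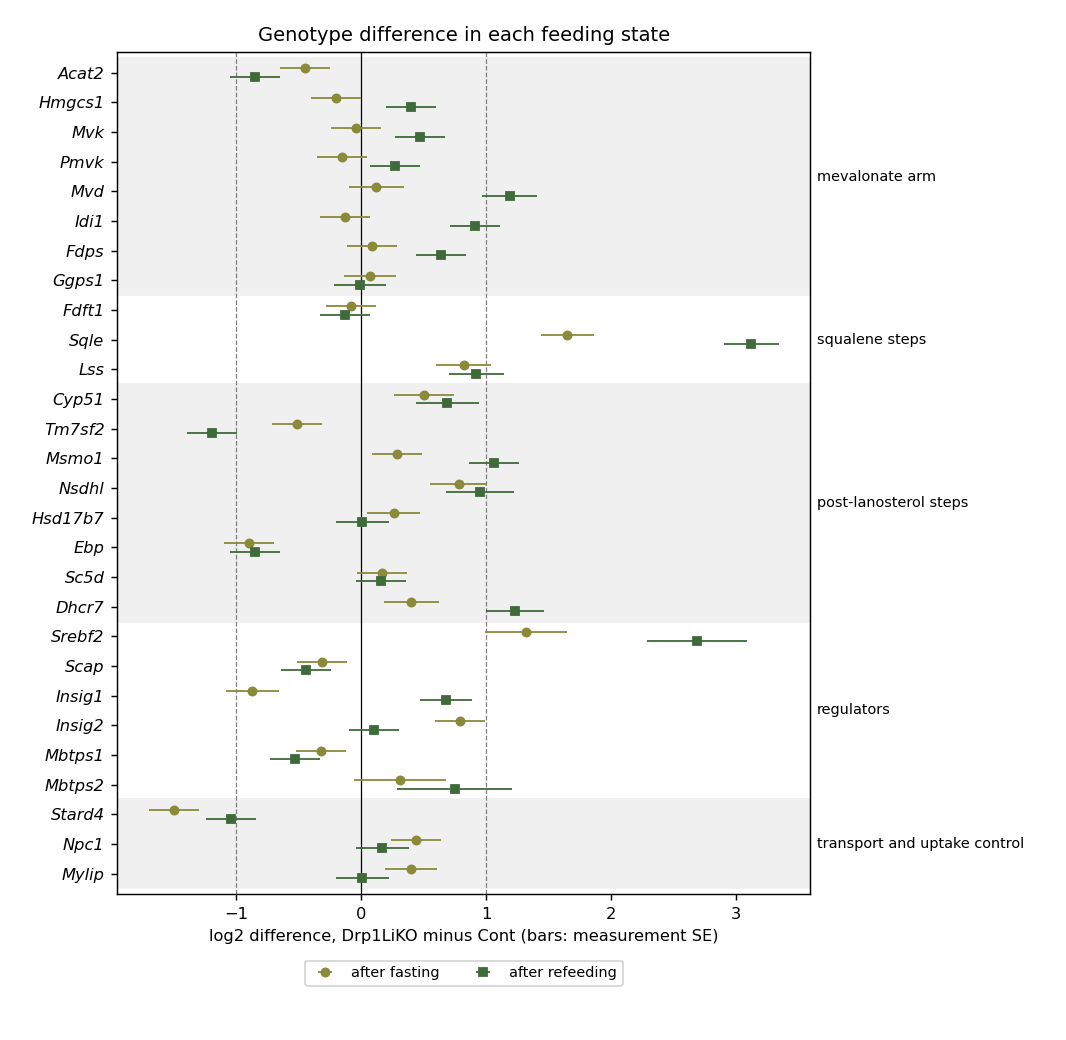
Log2 difference Drp1LiKO minus Cont (horizontal axis) after fasting (circles) and after refeeding (squares) for each member, with measurement SE bars from 1 array per condition and the 2-fold limits dashed. Sqle lies at 1.65 and 3.12, Stard4 at -1.50 and -1.04, and Insig1 on opposite sides of 0 at -0.87 and 0.68.

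Among the regulators, Srebf2, Insig1 and Insig2 passed 2-fold and Scap, Mbtps1 and Mbtps2 did not. Srebf2 had levels of -3.67 in Cont fasted, -3.74 in Cont refed, -2.35 in Drp1LiKO fasted and -1.05 in Drp1LiKO refed. The signal in Cont refed was not well above background, so the size of the refed genotype difference on this probe is uncertain. Its log2 value was 2.69 ± 0.40. Set against the dimmest Cont refed spot that still passed as detected, Drp1LiKO was 5.66-fold higher. This figure is not a lower limit, because the log2 difference was 1.23 with normexp and 1.53 with the median over both probes. It was 2.74 with median scaling, quantile normalization and the authors' matrix. After fasting the difference was 1.32 ± 0.33, but 0.37 with normexp and 0.86 with the median over probes, both under 2-fold. On refeeding in Drp1LiKO it was 1.30 ± 0.21, and 0.45 with the median over probes. These values come from 1 of 2 probes for the gene, at chromosome 15 from 82030068 to 82030127 of mm9. The other probe had levels of -3.32, -3.69, -2.91 and -3.31 in the same order of arrays, and on it Drp1LiKO was higher by 0.41 after fasting and 0.38 after refeeding, while refeeding in Drp1LiKO gave -0.40. The probes thus had the same sign for genotype and opposite signs for refeeding in Drp1LiKO, and none of the Srebf2 calls was made on the second probe.

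Insig1 is a retention protein of the SREBP complex and a known target gene of SREBPs. Its levels were -0.51 in Cont fasted, -0.69 in Cont refed, -1.38 in Drp1LiKO fasted and -0.01 in Drp1LiKO refed. The lowest and the highest array were thus both Drp1LiKO, and the Cont arrays lay between them. Refeeding gave -0.18 ± 0.21 in Cont and 1.37 ± 0.21 in Drp1LiKO, a 2.59-fold higher signal. The genotype difference was -0.87 ± 0.21 after fasting and 0.68 ± 0.21 after refeeding.

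Insig2, the second retention protein, whose liver transcript is known to be abundant in fasting, was lower on refeeding in Drp1LiKO, where Insig1 was higher. Its levels were 4.12 in Cont fasted, 3.44 in Cont refed, 4.92 in Drp1LiKO fasted and 3.54 in Drp1LiKO refed. Both refed arrays lay below both fasted arrays. The refeeding difference was -0.68 ± 0.20 in Cont and -1.37 ± 0.20 in Drp1LiKO, and the second probe gave -0.84 and -1.69. Drp1LiKO minus Cont was 0.79 ± 0.20 after fasting and 0.10 ± 0.20 after refeeding. On the second probe, not used for the calls, Drp1LiKO was higher by just over 2-fold after fasting and by 0.16 ± 0.20 after refeeding.

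The escort and the proteases stayed within 2-fold in all 4 comparisons. Scap had levels of 4.15 in Cont fasted, 3.94 in Cont refed, 3.84 in Drp1LiKO fasted and 3.50 in Drp1LiKO refed. Mbtps1, the site-1 protease, had 3.03, 3.16, 2.71 and 2.64 in the same order, with a second probe of the same signs. Each was lower in Drp1LiKO in both states, by differences no larger in size than -0.53 on the probes used for the calls. The second Mbtps1 probe gave -0.29 after fasting and -0.65 after refeeding. Mbtps2, the site-2 protease, had -3.51, -3.60, -3.20 and -2.85, where the Cont refed signal was not well above background. Its genotype difference was 0.31 ± 0.37 after fasting and 0.75 ± 0.46 after refeeding, with measurement SEs among the widest of the members.

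The 3 genes of transport and uptake control did not share a direction. Stard4, a cytosolic sterol carrier, had levels of 1.20 in Cont fasted, 1.40 in Cont refed, -0.30 in Drp1LiKO fasted and 0.36 in Drp1LiKO refed. Both Drp1LiKO arrays lay below both Cont arrays, with differences of -1.50 ± 0.20 after fasting, a 2.83-fold lower signal, and of -1.04 ± 0.20 after refeeding. The second probe gave -1.29 and -0.43. The refed difference of -1.04 dropped below 2-fold in size under all 5 other ways of processing the signals (-0.99 to -0.73). On refeeding, Stard4 was higher by 0.20 ± 0.20 in Cont and 0.66 ± 0.21 in Drp1LiKO. Its second probe gave 0.54 ± 0.29 and 1.41 ± 0.30, the latter past 2-fold. Npc1, which exports cholesterol from lysosomes, had 0.24 in Cont fasted, -0.01 in Cont refed, 0.68 in Drp1LiKO fasted and 0.17 in Drp1LiKO refed. Mylip, a ubiquitin ligase that lowers lipoprotein receptors at the cell surface, had -0.27, -0.54, 0.13 and -0.53 in that order. For Npc1 and Mylip the Drp1LiKO fasted array was the highest, and no comparison passed 2-fold on the probes used for the calls. The second probe of Mylip, well above background on 1 array, gave -1.08 ± 0.51 on refeeding in Drp1LiKO.

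The refeeding differences of the genotypes were then set against each other, gene by gene. This uses the same 4 arrays, and for each gene it equals the refed genotype difference minus the fasted one, so it adds no independent measurement. The difference of differences was 1.55 ± 0.29 for Insig1, 1.46 ± 0.30 for Sqle, 1.38 ± 0.52 for Srebf2, 1.07 ± 0.31 for Mvd and 1.04 ± 0.29 for Idi1, and no member was at -1 or lower. Over all measured genes, 6.58% were 2-fold or more higher by this measure and 8.31% lower, and the medians were 0.18 for the members and 0.03 for all genes. For Srebf2 the Cont refed signal was not well above background and the second probe gave -0.37 on refeeding in Cont and -0.40 in Drp1LiKO. The value of Mvd was 0.95 with normexp and that of Idi1 0.93 with quantile normalization, both under 2-fold. Of the 28 members, 10 had refeeding differences more than 2 measurement SEs apart between genotypes, 8 of them higher in Drp1LiKO. Over all measured genes the shares were 12.7% in either direction and 5.83% higher. These shares are not a like background, because the measurement SE is wider for dim signals. Well above background on all 4 arrays were 26 of the 28 members and 14447 of the 18963 measured genes. No test of this difference is possible with 1 array for each condition.

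**Figure D4:**
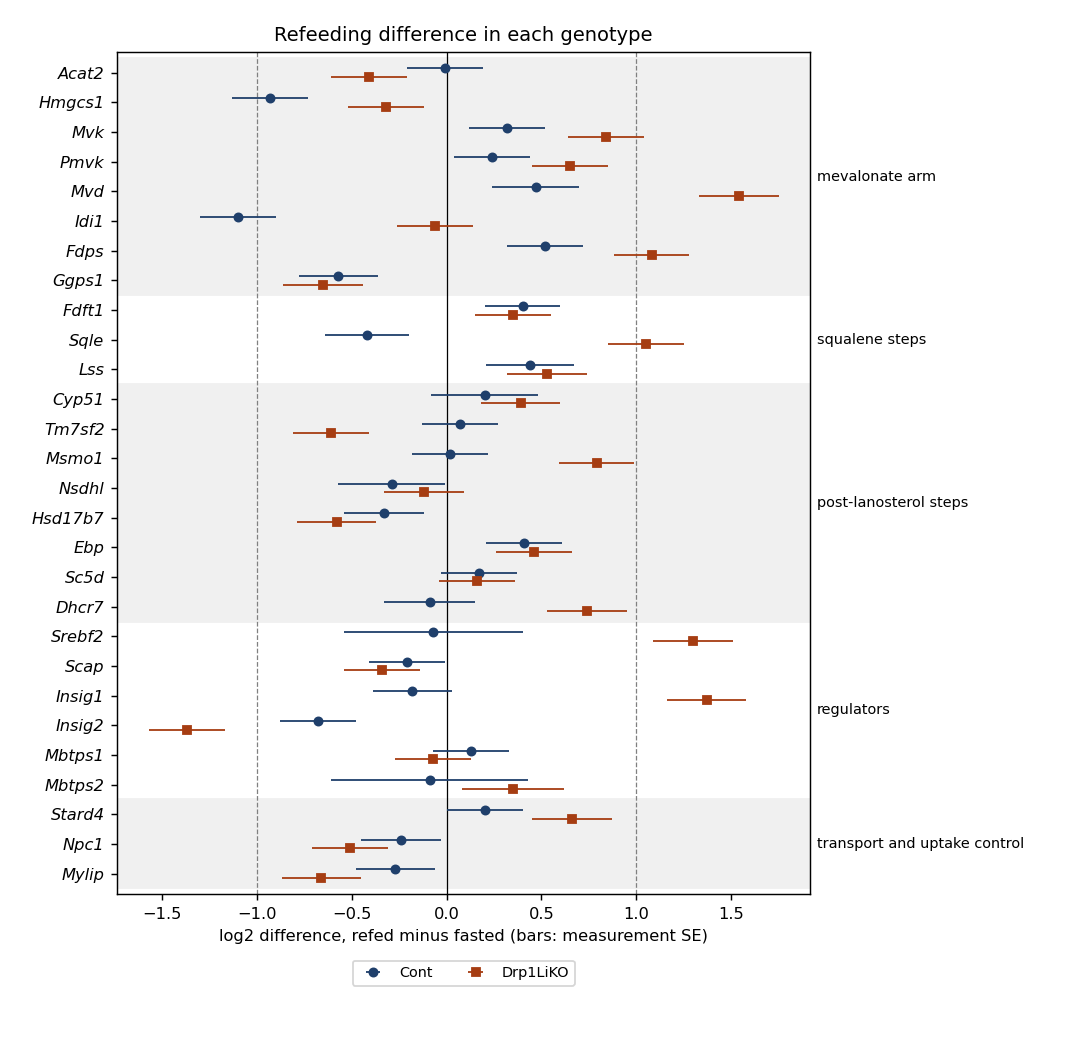
Log2 difference refed minus fasted (horizontal axis) in Cont (circles) and Drp1LiKO (squares) for each member, with measurement SE bars from 1 array per condition and the 2-fold limits dashed. Mvd, Insig1, Srebf2, Fdps and Sqle lie past 1 in Drp1LiKO and below it in Cont, while Idi1 lies at -1.10 in Cont and -0.06 in Drp1LiKO.

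Genes that surround the circuit were read from fixed lists. The SREBP1 lipogenic genes make fatty acids under insulin and SREBP1. Of 12 measured, 3 were called higher on refeeding in Cont (all genes, 3.88%) and 6 in Drp1LiKO (all genes, 5.42%), with none lower. Srebf1 itself had a refeeding difference of 1.29 in Cont and 2.55 in Drp1LiKO, and Fasn, the fatty acid synthase, 1.54 and 2.42. The fasted levels of both were lower in Drp1LiKO, at -3.00 beside -1.35 in Cont for Srebf1 and -3.40 beside -2.42 for Fasn. The refed levels in Drp1LiKO were not above those of Cont, at -0.45 beside -0.06 and -0.98 beside -0.88. None of these 12 genes was called higher in Drp1LiKO in either state, and 2 were called lower in each. Over all genes, 7.67% were called higher and 4.94% lower after fasting, and 7.4% and 5.83% after refeeding. Thrsp, a lipogenic regulator, was lower in Drp1LiKO, at -2.00 after fasting and -1.32 after refeeding. The other genes called lower were Srebf1 after fasting, at -1.65, and Scd1 after refeeding, at -2.13.

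Of 9 other sterol response genes, 1 was called higher on refeeding in each genotype (all genes, 3.88% in Cont and 5.42% in Drp1LiKO). After refeeding, 3 were called lower in Drp1LiKO and none higher (all genes, 5.83% lower and 7.4% higher). Aacs, which activates acetoacetate for lipid synthesis, was the gene called on refeeding, at 1.45 in Cont and 1.67 in Drp1LiKO, and it was lower in Drp1LiKO, at -1.41 after fasting and -1.18 after refeeding. Lpin1, a phosphatidate phosphatase, was just within 2-fold on refeeding in Cont at -0.99 and stood at -3.17 in Drp1LiKO. Of 16 genes of sterol storage and efflux, none was called higher in any comparison, and 2 were called lower on refeeding in Drp1LiKO, Abcg8, a subunit of the biliary sterol exporter, at -1.26 and Lpcat3, a phospholipid acyltransferase, at -1.15. Abcg8 was also called lower in Drp1LiKO after refeeding, at -1.57. Over all genes, 6.91% were called lower on refeeding in Drp1LiKO and 5.83% lower in refed Drp1LiKO against Cont. Within a single comparison 3.88% to 7.67% of all measured genes were called higher, so a count of 0 among 16 genes in 1 comparison is near the background. The share of all genes called higher in none of the 4 comparisons was not counted. None of 8 genes that degrade proteins of the pathway was called in any comparison. Over all measured genes, 27.8% were called in at least 1 of the 4 comparisons, and counts among 8 genes were not tested against that share. Of 8 other users of isoprenoids, Fntb was the only one called, 2-fold or more lower on refeeding in Cont and in fasted Drp1LiKO against Cont, and it was bright on the Cont fasted array alone (-1.65, against -4.36 to -4.72 on the others).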

How the data were processed

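The 28 members and all gene lists were chosen with earlier results of these data known. Liver RNA was labelled with Cy3 and hybridised to 4 one-colour Agilent 4x44K arrays on 1 slide with 1 scan time. Per the labels the array and RNA kit are these, and the paper's methods name others. Work started from the scanner intensity (processed signal) deposited by the authors, which is background-subtracted within an array and not normalized across arrays. The file headers give Feature Extraction 10.7.1.1 and the submitters' processing notes 9.5.1.1. The deposited matrix of normalized intensity values, used as an alternative, could be rebuilt by quantile-normalizing linear signals, with a median log2 deviation of 0.000377.

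Outlier-flagged spots were removed (37 of 39429 probes were lost), repeated spots averaged, and log2 signals set relative to the 75th percentile of the 43020 gene spots of each array (raw values 461, 722, 357 and 526 in Cont fasted, Drp1LiKO fasted, Cont refed and Drp1LiKO refed). Between 48.7% and 58.2% of probes were well above background. No count depth exists for arrays, and the 1 array per condition limits the precision. Probe names came from the files, and outside the members were updated where 26733 of 28358 RefSeq accessions matched. Of several probes for a gene, the one exceeding background on more arrays was read, and at equal numbers the brighter. All members were named, with every array's level for called members, regulators and transport genes. Calls needed 2-fold with the brighter signal well above background, among the 18963 genes that 1 or more arrays had well above background. limma 3.58.1 in R 4.3.3 was fitted with genotype and feeding state to 16744 genes that 2 or more arrays had well above background, with Benjamini-Hochberg adjustment, after a check on simulated data. Probe positions are those of mm9 in the files, and whether a probe lies in coding sequence was not analysed here. Promoters are 250-base windows of GRCm38.p6 from RefSeq. Of the 28 members, 5 were not matched in that table. Alternatives were median scaling, quantile normalization, normexp with an offset of 50, the authors' matrix, the median over all probes, genes well above background on all 4 arrays, a 1.5-fold threshold, and for limma an intensity trend or no second factor. One cell type marker is not reported here.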

Additional observations from a re-analysis of the deposited data

Results flagged for a closer look

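Insig1 had genotype differences on opposite sides of 0 in the 2 feeding states, each more than 2 measurement SEs from 0. Drp1LiKO minus Cont was -0.87 after fasting and 0.68 after refeeding on the log2 scale. With 1 array for each condition the difference between these values was not tested. No other member met this description in the genotype or the refeeding comparison.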

How the results depend on the processing

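No paired analysis was possible because each condition has 1 array. Of the 22 called member values (the 17 of the 4 comparisons and the 5 differences of refeeding differences), none changed sign under 5 other ways of processing the signals, and 13 stayed past 2-fold under all 5. Srebf2 was the least stable: with the median over its probes it was 0.45 on refeeding in Drp1LiKO, 0.86 between genotypes after fasting and 0.67 for the difference of refeeding differences, and with normexp the genotype value was 0.37 after fasting and 1.23 after refeeding. The count of members called on refeeding in Cont was 1, and 2 with quantile normalization, the authors' matrix or the median over all probes. After refeeding, 7 members were called between genotypes, and 4 with normexp. The 1.5-fold threshold gave 3 and 14 members for refeeding in Cont and Drp1LiKO, and 8 and 16 for genotype after fasting and refeeding. The member median for refeeding in Cont, -0.04, changed sign with normexp (0.01), the median over all probes (0.03) and the restriction to members detected on all 4 arrays (0.01). The median for refeeding in Drp1LiKO, 0.35, was 0.13 with quantile normalization and with the authors' matrix. In limma, 0 members were called for genotype, and 3 with normexp, 5 when only genes detected on all 4 arrays were fitted and 2 with an intensity trend; the causes of these changes were not tested. None was called for feeding state in any limma fit. Scaling to the median moved the median difference of differences over all genes from 0.03 to 0.14. Signal over background limits Srebf2 and Mbtps2.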
